A study of Drosophila melanogaster with 24 samples.

Results

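Odorant binding protein (Obp) genes were examined in whole male flies, at 2 ages and on 2 diets. The genes were chosen by name, as every gene listed under a name that starts with Obp and a number. This gave 35 of the 12506 genes listed in at least 1 of the 4 conditions, and 31 of the 35 had a value in all 4. Among them, Obp50b and Obp50c have identical values, so the 35 genes give 34 measurements. All flies were w1118 males, from a stock that carries a mutant white gene, and RNA was taken from whole bodies. Flies in the older group were 20 to 27 d old and flies in the younger group 0 to 7 d old. Each condition held 3 libraries of injured flies, which had been struck with the high impact trauma (HIT) device, and 3 of uninjured flies. Injured and uninjured flies alike were then kept on food for 4 hr or on water for 2 hr, so diet and time before RNA extraction cannot be told apart. The conditions are called older food, older water, younger food and younger water, and there were 24 libraries in all.

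Odorant binding proteins are small secreted proteins. Many are made by support cells around olfactory and taste neurons and fill the fluid that odors cross on the way to the receptors. Others are made outside the sense organs, including in the male reproductive tract, where they are passed to the female with seminal fluid. Levels of Obp genes in a whole male fly are therefore sums over several tissues, in which fewer cells of a type and less RNA per cell cannot be told apart.

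The level analysed is the authors' average log2 CPM (logCPM, with CPM a read count scaled to a fixed library size), 1 value per gene and condition. It averages over the injured and the uninjured libraries, so injury effects and levels of uninjured flies alone were not analysed here. The averages carry no spread between libraries and no depth, so no difference below was tested, and neighboring levels in any order cannot be said to differ. Differences are on the log2 scale, and each condition was normalized on its own by the authors. Over all genes in both conditions, the median difference was 0.157 for older minus younger flies on food, 0.089 for older minus younger flies on water, 0.145 for food minus water in older flies and 0.036 for food minus water in younger flies. An Obp difference of this size is no larger than that of the middle gene.

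The sex label was checked with accessory gland genes, which mark males, and with yolk and eggshell genes, which mark females. Of 14 accessory gland names 12 were listed, all 12 in every condition, with a summed level of 2504 CPM in older food, 2519 CPM in older water, 6714 CPM in younger food and 5574 CPM in younger water. Of the 8 female genes, 1 was listed in older food, 2 in older water, 5 in younger food and 1 in younger water. Their summed level was 15.6 CPM in older food, 34.5 CPM in older water, 164 CPM in younger food and 12.6 CPM in younger water, and the eggshell genes Cp16, Cp18 and Cp19 had no value in any condition. Levels of the female genes were thus highest in younger food, and the part of female RNA in the Obp values there was not tested.

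Together the Obp genes made up 1713 CPM on food and 1681 CPM on water in older flies, against 2566 CPM on food and 2128 CPM on water in younger flies. In percent of all counts these were 0.171 and 0.168 in older flies, and 0.256 and 0.212 in younger flies. Most of this came from a few genes, since the 4 highest in each condition summed to 1037 CPM in older food, 1091 CPM in older water, 1891 CPM in younger food and 1556 CPM in younger water. Without regard to length, the median Obp level was below that of all genes, at 3.40 logCPM in older food against 4.59 over all genes. It was 3.70 logCPM in older water (all genes 4.52), 3.495 in younger food (all genes 4.596) and 3.76 in younger water (all genes 4.603). Of the Obp genes, 11 to 13 in each condition lay above that median. Obp transcripts are short, so levels of different genes were compared per kb of the longest annotated transcript. On this scale the order was turned round. The median Obp level was 4.20 logCPM per kb in older food, against 3.64 over all genes. In older water it was 4.31 logCPM per kb against 3.53 over all genes, in younger food 4.14 against 3.65 and in younger water 4.34 against 3.64.

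**Figure D1:**
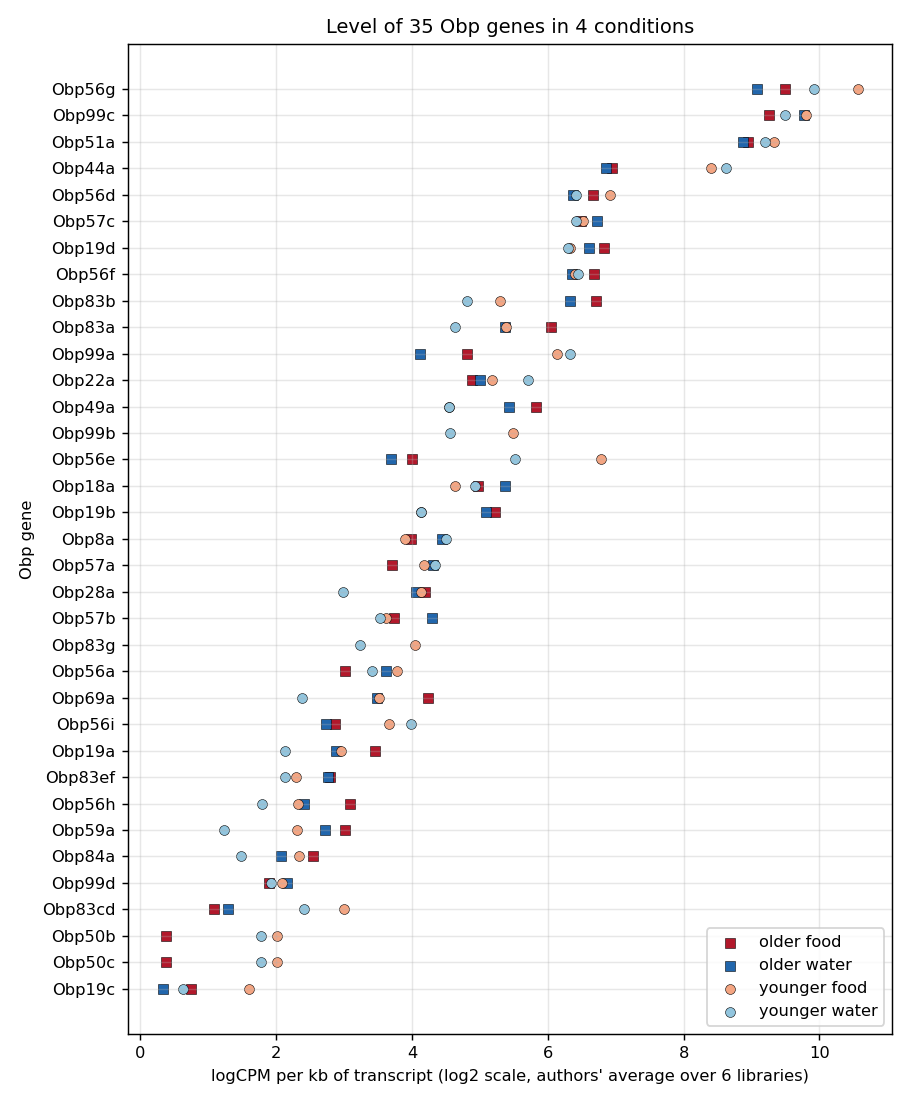
Level of each Obp gene (rows) in logCPM per kb of transcript on the log2 scale, with 1 point per condition (squares, older flies; circles, younger flies; red shades, food; blue shades, water). Genes are ordered by their mean over the conditions, and Obp56g, Obp99c and Obp51a stand at the top.

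Per kb, Obp56g had the highest mean level, 9.76 logCPM per kb, followed by Obp99c at 9.58 and Obp51a at 9.09. Obp56g and Obp51a encode seminal fluid proteins, and Obp56g is needed in males for formation of the mating plug. Obp44a, whose protein is abundant in the nervous system, came next at 7.71 logCPM per kb. Obp56d, Obp57c, Obp19d and Obp56f lay close together, between 6.47 and 6.59 logCPM per kb. The lowest mean was that of Obp19c, 0.83 logCPM per kb. Obp99c overlaps Gycalpha99B in the annotation, Obp51a overlaps hbs and Obp44a overlaps Pabp2, each on the opposite strand. The paper's library protocol names no step that marks the strand of a read, and the sources do not state that counting used strand. Reads from these gene pairs may thus not have been separated.

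The largest differences with age were toward lower levels in older flies. Of 33 Obp genes with a value in older and younger food, 7 were lower by more than 2-fold in older flies, beside 18.5 percent of all genes, and 3 were higher by more than 2-fold, beside 5.64 percent. Obp50b and Obp50c, which share 1 measurement are both among the 33 and the 7, and counted once they leave 6 of 32. On water 5 of 31 were lower by more than 2-fold in older flies, beside 17.9 percent of all genes, and 4 were higher, beside 3.44 percent. The shares of Obp genes that were lower are thus close to those of all genes, and the higher ones rest on 3 and 4 genes. The median Obp difference was -0.03 on food and 0.29 on water. Older levels were above younger ones for 16 of 33 genes on food (48.5 percent, beside 59.0 percent of all genes) and 18 of 31 on water (58.1 percent, beside 55.8 percent). When each condition was centered on its median over genes listed in all 4, the count on water was 22 of 31 (71.0 percent, beside 65.8 percent of all genes). On food it was then 17 of 33 (51.5 percent, beside 61.5 percent), with Obp50b and Obp50c both counted. On water these shares lay near those of all genes. On food they lay below them, a difference that was not tested.

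Obp56e differed most over the conditions. Its logCPM was 3.09 on food and 2.78 on water in older flies, against 5.87 on food and 4.604 on water in younger flies. Both older values lie below both younger ones, and the older level was 6.88-fold lower on food and 3.55-fold lower on water. The gene overlaps an antisense RNA, and its level per condition may include reads of that transcript. Each level also averages injured and uninjured flies, and the part of an injury response in these age differences was not tested.

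Obp44a was at 7.05 logCPM on food and 6.97 on water in older flies, against 8.51 on food and 8.73 on water in younger flies. The older level was 2.76-fold lower on food and 3.39-fold lower on water, and the diets differed by 0.22 at most. Obp99a, an antennal gene, was also lower in older flies on both diets. Its logCPM was 4.10 on food and 3.41 on water in older flies, against 5.42 on food and 5.61 on water in younger flies, which is 2.49-fold lower in older flies on food and 4.59-fold lower on water. Obp83cd, at 0.93 logCPM on food and 1.14 on water in older flies, against 2.85 on food and 2.26 on water in younger flies, was also lower in older flies on both diets. Its annotated span overlaps that of Obp83ef on the opposite strand, and Obp83ef went the other way, with age differences of 0.49 on food and 0.63 on water. For both genes, too, the part of an injury response in these averages was not tested. Obp56e, Obp44a, Obp99a and Obp83cd are the 4 Obp genes that were lower by more than 2-fold in older flies on both diets, out of 31 (12.9 percent), beside 15.7 percent of all genes in all conditions.

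Obp56g, the highest gene per kb, was at 8.47 logCPM on food and 8.07 on water in older flies, against 9.55 on food and 8.91 on water in younger flies. The older level was 2.11-fold lower on food and 1.79-fold lower on water. On the CPM scale this was 355 on food and 269 on water in older flies, against 749 on food and 481 on water in younger flies.

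Of the 7 Obp genes known from seminal fluid (Obp8a, Obp22a, Obp51a, Obp56e, Obp56f, Obp56g and Obp56i), 5 were lower in older flies on both diets (71.4 percent, beside 35.6 percent of all genes) and 0 were higher on both (beside 51.7 percent of all genes). Their median age difference was -0.39 on food and -0.72 on water. On water all 7 were lower in older flies as deposited and 5 of 7 after centering. Of all 11531 genes, 5097 were lower as deposited and 3938 after centering. Obp51a, at 7.62 logCPM on food and 7.55 on water in older flies, against 8.002 on food and 7.86 on water in younger flies, varied by 0.45 in all. Obp22a was at 4.43 logCPM on food and 4.54 on water in older flies, against 4.72 on food and 5.25 on water in younger flies, and was higher on water than on food at both ages. Obp56f, at 5.75 logCPM on food and 5.44 on water in older flies, against 5.48 on food and 5.52 on water in younger flies, differed by 0.31 at most. The seminal fluid Obp genes summed to 651 CPM on food and 549 CPM on water in older flies, against 1156 CPM on food and 851 CPM on water in younger flies.

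The accessory gland genes, which encode other seminal proteins, had a median age difference of -1.13 on food and -1.04 on water. Of the 12 listed, 11 were lower in older flies on both diets, beside 35.6 percent of all genes, and Acp26Ab was the exception. Acp36DE, a protein needed for sperm storage, was at 9.91 logCPM on food and 9.57 on water in older flies, against 11.59 on food and 11.15 on water in younger flies. Levels of these genes thus moved with age in the same direction as those of 5 of the 7 seminal fluid Obp genes.

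**Figure D2:**
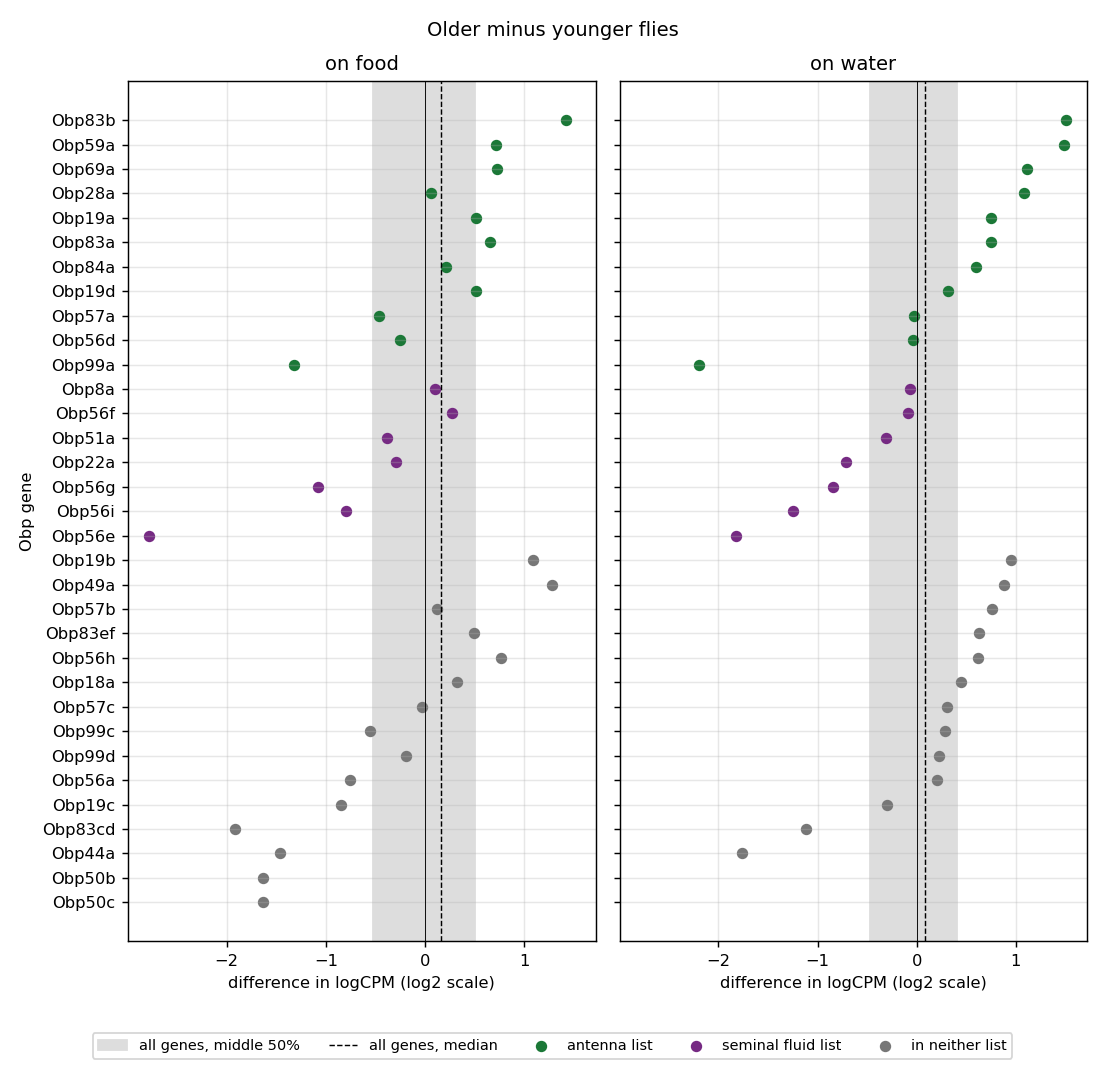
Difference in logCPM of older minus younger flies (x axis, log2 scale) for each Obp gene, on food (left) and on water (right). Green points are the antenna list, purple points the seminal fluid list and grey points the rest, the grey band holds the middle 50 percent of all genes and the dashed line is their median. Obp83b lies farthest to the right on both diets and Obp56e or Obp99a farthest to the left.

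Higher levels in older flies were found for most Obp genes of the antenna. Of the 11 genes in this list (Obp19a, Obp19d, Obp28a, Obp56d, Obp57a, Obp59a, Obp69a, Obp83a, Obp83b, Obp84a and Obp99a), 8 were higher in older flies on both diets (72.7 percent, beside 51.7 percent of all genes), and Obp56d, Obp57a and Obp99a were lower on both. Centered on the median of each condition, 8 of 11 were higher in older flies on food and 10 of 11 on water, where Obp56d and Obp57a changed sides. Over all genes the centered shares were 61.5 percent on food and 65.8 percent on water. The median age difference of the list was 0.51 on food and 0.75 on water. The list's median level hardly moved, at 3.40 logCPM on food and 3.41 on water in older flies, against 3.34 on food and 3.50 on water in younger flies, while the gene in the middle was Obp28a on food at both ages, Obp99a in older water and Obp57a in younger water.

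Obp83b and Obp83a are neighboring genes for proteins of the fluid in olfactory hairs, once named OS-E and OS-F. Obp83b was at 5.80 logCPM on food and 5.40 on water in older flies, against 4.37 on food and 3.89 on water in younger flies, so both older values lie above both younger ones. The older level was 2.69-fold higher on food and 2.85-fold higher on water, larger differences than those of 98.3 and 99.3 percent of all genes. Obp83a was at 5.87 logCPM on food and 5.20 on water in older flies, against 5.21 on food and 4.45 on water in younger flies, with the older level 1.58-fold higher on food and 1.68-fold higher on water. For Obp83a the older water and younger food values nearly coincide.

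Obp69a, which encodes a pheromone-binding protein of the antenna, was at 3.36 logCPM on food and 2.61 on water in older flies, against 2.64 on food and 1.504 on water in younger flies. The older level was 1.65-fold higher on food and 2.16-fold higher on water. Obp19d, the antennal gene with the second highest level per kb, was at 6.97 logCPM on food and 6.75 on water in older flies, against 6.46 on food and 6.43 on water in younger flies. Obp56d, the highest of the list per kb, was at 6.545 logCPM on food and 6.26 on water in older flies, against 6.80 on food and 6.30 on water in younger flies, and showed a diet difference but little age difference on water. Obp59a, a gene needed for humidity sensing and named here after its values were seen, had age differences of 0.72 on food and 1.49 on water. Obp69a overlaps CG32104, Obp59a overlaps CG30259 and Obp84a overlaps Dtwd2 in the annotation.

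Outside both lists, Obp49a was at 5.47 logCPM on food and 5.07 on water in older flies, against 4.19 on food and 4.18 on water in younger flies. Its protein works in taste hairs, where it takes part in the suppression of sweet responses by bitter compounds. The older level was 2.43-fold higher on food and 1.85-fold higher on water, with no difference between diets in younger flies beyond 0.01. Obp99c, with 8.46 logCPM on food and 8.99 on water in older flies, against 9.02 on food and 8.70 on water in younger flies, was lower in older flies on food and higher in older flies on water. Obp57c stayed within 0.31 over the conditions, at 5.64 logCPM on food and 5.87 on water in older flies, against 5.67 on food and 5.56 on water in younger flies. The other genes outside both lists with a value everywhere were Obp18a, Obp19b, Obp19c, Obp56a, Obp56h, Obp57b, Obp83ef and Obp99d, and their age differences lay between -0.85 and 1.09 on food and between -0.30 and 0.96 on water.

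Fewer Obp genes differed by more than 2-fold between diets than between ages. In older flies 0 of 31 Obp genes were higher on food by more than 2-fold, beside 2.55 percent of all genes, and 0 were lower, beside 0.604 percent. In younger flies 4 of 35 were higher on food by more than 2-fold, beside 1.22 percent of all genes, and 0 were lower, beside 0.736 percent. These 4 were Obp56e (2.41-fold), Obp28a (2.23-fold), Obp69a (2.19-fold) and Obp59a (2.10-fold). Levels were higher on food for 26 of 35 Obp genes in younger flies (74.3 percent, beside 55.6 percent of all genes; 25 of 34 with Obp50b and Obp50c counted once), with a median difference of 0.24. In older flies they were higher on food for 21 of 31 genes (67.7 percent, beside 66.4 percent of all genes) with a median of 0.13, and after centering for 15 of 31 (48.4 percent, beside 50.1 percent). Both counts in older flies are those of the background, and their direction rests on the scaling. The food flies were sampled at 4 hr and the water flies at 2 hr.

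The antenna list was higher on food than on water for 9 of 11 genes at both ages (81.8 percent, beside 45.9 percent of all genes). The median difference was 0.40 in older flies and 0.76 in younger flies. Obp57a was lower on food at both ages, and Obp99a was higher on food in older flies alone. The seminal fluid list had median diet differences of 0.13 in older flies and -0.04 in younger flies. Obp56e stood apart in that list through its level of 5.87 logCPM in younger food. The female genes were also highest in that condition, at a sum of 164 CPM. In younger water their sum was lowest, at 12.6 CPM, and Obp56e was at 4.604 logCPM. The part of female RNA in the Obp56e level was not tested. Obp56e was the gene with the largest diet difference of the family in younger flies, and 99.5 percent of all genes had a lower one.

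**Figure D3:**
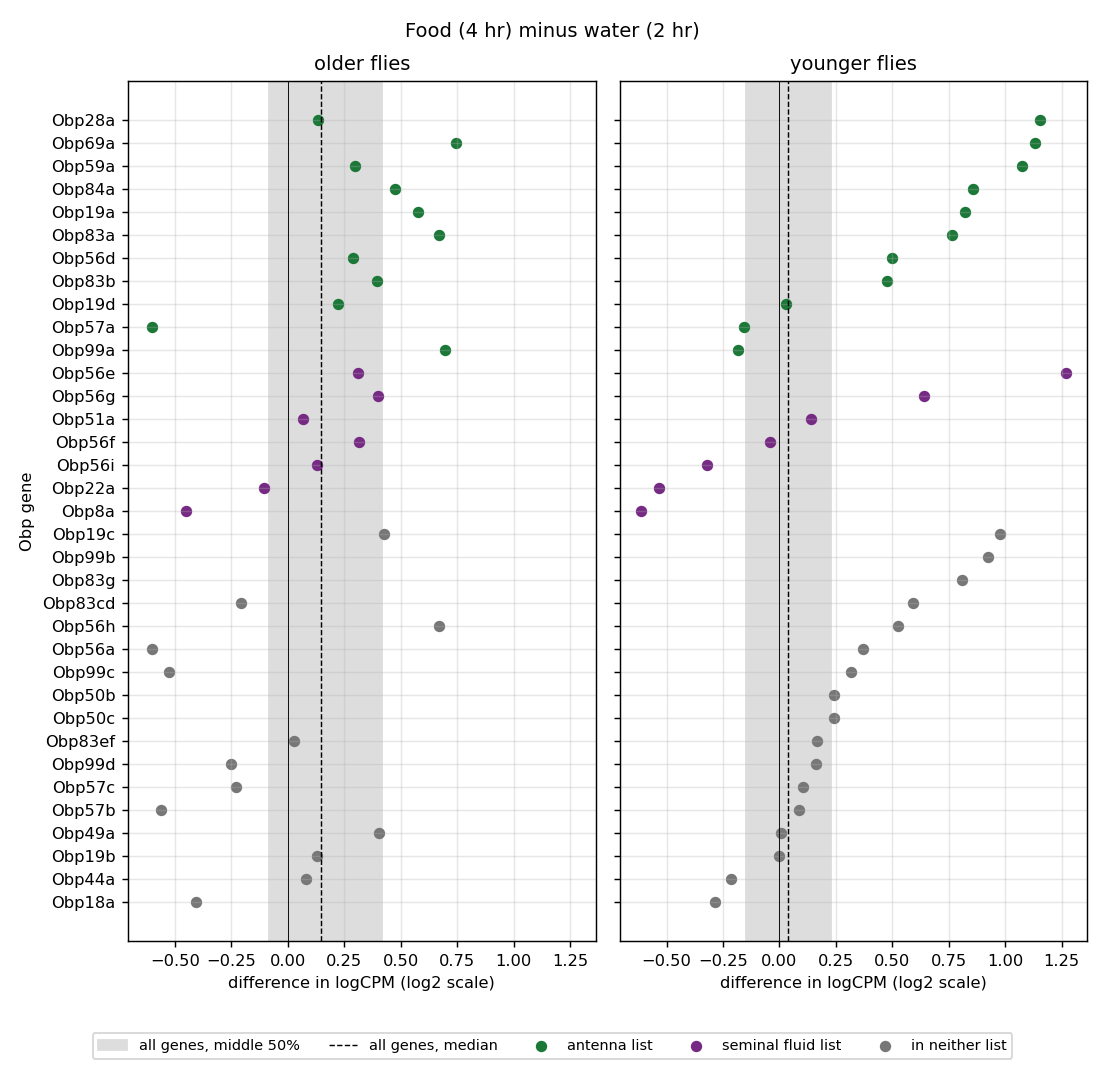
Difference in logCPM of food (4 hr) minus water (2 hr) for each Obp gene on the log2 scale, in older flies (left) and younger flies (right), with colors, band and line as in the plot of age differences. In younger flies 26 of 35 points lie right of 0, with Obp56e, Obp28a, Obp69a and Obp59a farthest right.

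Taking age and diet together, 8 of the 11 antenna genes had their highest level in older food and their lowest in younger water. The same order was found for 3 of the other 20 Obp genes with a value everywhere (15.0 percent) and for 17.1 percent of all 11457 genes in all conditions. The antenna list was chosen with earlier results of these data known, so this contrast is a description and not a test. Of the 8 antenna genes, Obp83b had the widest range, 1.90 on the log2 scale, and Obp69a the next, 1.86.

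Other genes of the olfactory organs were followed in a list of 12, of which 9 were listed and 8 had a value everywhere. Of these 8, 7 had their highest level in older food and their lowest in younger water, and all 8 were higher on food than on water at both ages. Over all genes these shares were 17.1 and 45.9 percent. Orco, the co-receptor that odorant receptors need, was at 4.07 logCPM on food and 3.30 on water in older flies, against 2.94 on food and 2.30 on water in younger flies. The gene lush, which encodes the binding protein for the male pheromone cVA and belongs to the Obp family under another name, was at 3.24 logCPM on food and 2.72 on water in older flies, against 2.86 on food and 2.26 on water in younger flies. Os-C, a gene of antennal support cells, was at 5.08 logCPM on food and 4.22 on water in older flies, against 4.47 on food and 3.53 on water in younger flies. Ir25a, a co-receptor of the ionotropic receptors, was the exception, with its highest level, 2.45 logCPM, in younger food. The summed level of the listed genes was 145 CPM on food and 103 CPM on water in older flies, against 95.2 CPM on food and 66.0 CPM on water in younger flies. Odorant receptors other than Orco did not share this direction with age. Of the 4 with a value everywhere, 1 was higher in older flies on both diets and 1 was lower on both. Of 6 ionotropic receptors, Ir25a among them, 3 were higher on both and 1 was lower on both. Over all genes, 51.7 percent were higher on both and 35.6 percent lower. The part that the amount of antennal tissue RNA has in the Obp differences was not tested.

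**Figure D4:**
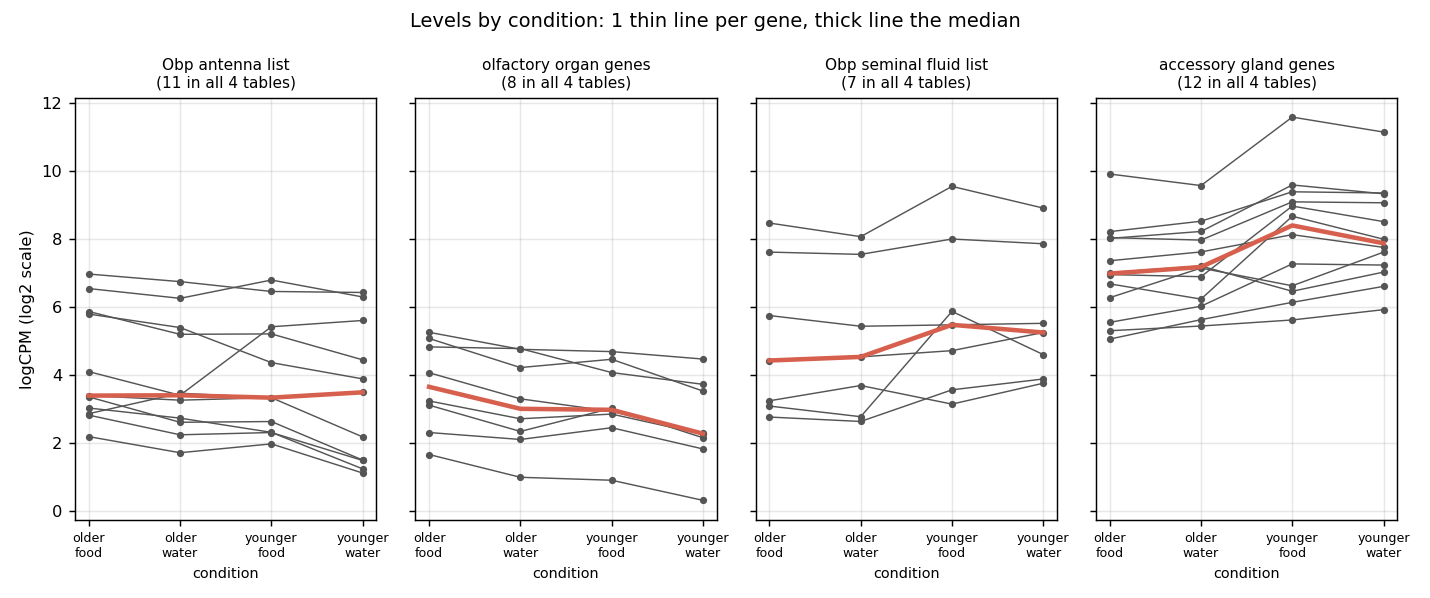
Level in logCPM (y axis, log2 scale) by condition (x axis) of the Obp antenna list, the olfactory organ genes, the Obp seminal fluid list and the accessory gland genes, with a thin line per gene listed in all conditions and a thick line for their median. Of 8 olfactory organ genes 7 have their highest point in older food and their lowest in younger water, and 11 of 12 accessory gland genes are higher in younger flies on both diets.

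Obp genes that lacked a value in a condition did so in older flies. Of the 12506 genes of the series, 11955 had a value in older food and 11663 in older water. In younger flies 12276 had one on food and 12187 on water. Missing values were thus more common in older flies over all genes too, and are not particular to the Obp genes. Obp99b was at 4.71 logCPM in younger food and 3.79 in younger water, and Obp83g at 3.23 logCPM in younger food and 2.43 in younger water, and neither had a value in older flies. The authors removed genes with low or empty values, at a limit not given in the sources used here, and the lowest level listed for any gene was 0.03 logCPM in older food and -0.29 in older water. Levels of these genes in older flies are thus unknown, and no fold can be given. Obp50b and Obp50c had the same value in every condition, 1.10 logCPM in older food, 2.73 in younger food and 2.49 in younger water, with none in older water. Both share 1 annotated span on the same strand, so their values are 1 measurement, and on food it was 3.11-fold lower in older flies. A further 16 Obp genes of the annotation had no value in any condition and were not analysed here. They are Obp46a, Obp47a, Obp47b, Obp50a, Obp50d, Obp50e, Obp56b, Obp56c, Obp57d, Obp57e, Obp58b, Obp58c, Obp58d, Obp73a, Obp85a and Obp93a. Of these 16, 13 lie on chromosome arm 2R, as do many of the listed Obp genes.

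Many Obp genes lie side by side, and the annotation holds 9 runs in which neighbors are at most 10 kb apart. The 21 listed genes that belong to a run lie in 8 of them, since Obp57d and Obp57e form a run with no value, and Obp59a is the single listed gene of its run. Neighbors differed widely in level. In the run of 4 genes on the X chromosome, Obp19d stood at a mean of 6.51 logCPM per kb, Obp19b at 4.64, Obp19a at 2.86 and Obp19c at 0.83, a span of 5.69 on the log2 scale. In the run of Obp56a to Obp56f the span was 3.14, with Obp56d highest. Age differences also varied within a run. On food they lay between -2.78 for Obp56e and 0.27 for Obp56f, whose genes are next to each other, and in the run of Obp83cd, Obp83ef and Obp83g between -1.92 and 0.49. The pair of Obp83a and Obp83b was close in level, with a span of 0.43, and both had higher levels in older flies. Their age differences on food were 0.66 for Obp83a and 1.43 for Obp83b.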

How the data were processed

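RNA-seq libraries of whole male flies were made with an Illumina TruSeq kit. The authors used Skewer to trim reads, STAR 2.4.2a for alignment, RSEM 1.2.22 for expected counts per gene and, after dropping genes with low or empty values, edgeR 3.10.5 for the comparison of injury with no injury (tools and the dm3 genome build from the submitters' processing notes and the paper's methods). The authors' deposited tables, 1 per condition, hold a log2 fold change, a likelihood ratio, a p-value and an FDR of that comparison, none of which was used, and an average log2 CPM, which was. Empty rows, 292 of them in the older water table, were skipped. Single libraries have no values here, so the depth and the spread between libraries are unknown. The planned test of injured against uninjured flies could therefore not be run, and no test was made.

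Levels per kb used the longest transcript in Ensembl release 115 of BDGP6, a later build than the authors'. Overlaps, strands, chromosome arms and distances between neighbors were read from its coordinates, and no coordinate is printed. Of 12506 symbols, 12498 (99.9%) matched, older symbols through RefSeq. CPM values are back-transformed averages. Differences of more than 2-fold were counted beside all genes.

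Values are given for the 12 Obp genes with the highest mean logCPM, the 5 with the largest range and the 4 without a value in every condition. The members and gene lists were chosen with earlier results of these data known, and genes outside this rule were chosen after their values were seen. No sequences and no cysteine counts are given, as no sequence reference was used here. Alternatives were a minimum logCPM of 1, genes in all 4 conditions, levels per kb and centering each condition on its median. Python 3.11.15, pandas 2.3.3, numpy 2.4.6 and matplotlib 3.10.9 were used.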

Additional observations from a re-analysis of the deposited data

How the results depend on the processing

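With no spread between libraries, a value was taken as moved when it changed by 0.1 or more on the log2 scale. Per kb of transcript, the median Obp level was 4.20 in older food, 4.31 in older water, 4.14 in younger food and 4.34 in younger water, against 3.40, 3.70, 3.50 and 3.76 logCPM in the same order without the length. At a minimum logCPM of 1 the median was 3.78 in older food and 3.86 in older water, and 30 of 33 and 30 of 31 genes passed. With genes in all 4 conditions alone, it was 3.89 in younger water. The median age difference on food was -0.03 as deposited, 0.03 after centering and 0.079 at a minimum logCPM of 1, so its sign is not set. The median age difference on water was 0.48 after centering, and the median diet difference in older flies was -0.01 after centering, against 0.13 as deposited. Of 70 differences of the named genes, 64 kept their sign after centering and 6 changed it, with sizes of up to 0.086 as deposited and 0.151 after centering. DESeq2, a fit without a filter on low counts, a replicate block and leaving out replicates were not run. No paired analysis was possible because the tables hold no values per library.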

Other observations

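Receptor genes, looked at after the Obp values were seen, were low in whole flies. Odorant receptors other than Orco were represented by 5 genes, of which Or43b was highest, at 2.41 logCPM on food and 1.96 on water in older flies, against 2.28 on food and 1.99 on water in younger flies. All 4 with a value everywhere were higher on food than on water at both ages. Of 13 ionotropic receptor genes, 6 had a value everywhere, and all 6 were higher on food at both ages. Over all genes, 45.9 percent were higher on food at both ages. With age the receptor genes had no common direction. Of the 4 odorant receptors, 3 were higher in older flies on food and 1 on water (median difference -0.17), and 1 was higher on both diets. Over all genes, 59.0 percent were higher in older flies on food and 55.8 percent on water. On both diets together, 51.7 percent of all genes were higher and 35.6 percent lower. Of the 6 ionotropic receptors, 3 were higher in older flies on both diets and 1 was lower on both. That 1 was Ir75d, at 1.04 logCPM on food and 0.49 on water in older flies, against 3.096 on food and 2.54 on water in younger flies. Ir75a and Ir75b were at 1.99 and 1.75 logCPM in older food and at 2.07 and 1.86 in older water, while in younger flies Ir75a had a value on food alone, 0.18 logCPM, and Ir75b had none. Taste receptors were represented by 9 genes, and Gr39a was the single one with a value everywhere, at 2.00 logCPM on food and 1.31 on water in older flies, against 1.35 on food and 0.62 on water in younger flies. None of these differences was tested, and values this low lie near the authors' filter.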
